A study of Mus musculus with 11 samples.

Results

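A set of 10 genes that answer to β-catenin was read from livers carrying a β-catenin and MET driven cancer: the feedback inhibitors Axin2, Nkd1, Notum, Znrf3 and Rnf43, the receptor gene Lgr5, and the transcription factor genes Tcf7, Lef1, Sp5 and Tbx3. They were chosen by symbol and are 10 of the 43346 genes in the deposited gene table. All 10 passed the filter on low counts, which left 17610 genes. The livers came from FVB/NJ mice whose hepatocellular carcinoma was induced by expressing MET, a receptor tyrosine kinase, with β-catenin. Every library in all groups shares that strain and that disease. The labels sort 10 livers given an antibody against the T cell receptor PD-1 into 6 responders and 4 non-responders. One more library has a response label of no treatment. Its treatment label also names the antibody, and it is called untreated here after the response label only. The labels give no age, no promoter for either oncogene and do not say that each library is a mouse of its own. Every p-value here therefore takes libraries as its units, and their scatter may be technical.

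In Wnt signalling, a ligand bound by Frizzled and LRP receptors stops a complex built on Axin and APC from degrading β-catenin. Stabilised β-catenin enters the nucleus and activates genes through TCF/LEF factors, several of which encode brakes on the same pathway. In the normal liver this programme marks the hepatocytes around the central vein, and activating changes in β-catenin are frequent in liver cancer.

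TCF/LEF factors recognise short sequences that begin with CTTTG. RefSeq promoter windows (GRCm38.p6, 250 bases before to 50 after a start) were found for 6 of the 10 genes, in 11 windows. They were searched on both strands for CTTTGNN with each N an A or a T. Such letters occur in 16.9% of all 32851 windows of that length and in 2 of the 11, one of Sp5 and one at an internal start of Lef1. The stretches below hold the only matches found in these windows, and the capitals mark the match in the written strand.
Sp5, chr2:70474673-70474747, plus strand: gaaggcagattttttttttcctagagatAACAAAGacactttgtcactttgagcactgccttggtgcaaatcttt
Sp5, chr2:70474779-70474865, plus strand: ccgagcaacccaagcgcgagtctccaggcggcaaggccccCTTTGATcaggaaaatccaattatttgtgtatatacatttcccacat
Lef1, chr3:131156107-131156193, plus strand: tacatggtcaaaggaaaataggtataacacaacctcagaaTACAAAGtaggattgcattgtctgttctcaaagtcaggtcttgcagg
The windows of Axin2, Nkd1, Rnf43 and Tcf7 hold none of these letters in that stretch. The only window of Nkd1 (chr8:88527383-88527682) is at an internal start. The first counted exon of Nkd1 begins at 88521344, and the stretch before it was not searched. A match is a description of the letters and was not tied to binding.

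Gene counts summed to between 17876515 (responder replicate 4) and 49884800 (untreated) per library. Coverage in non-responder replicate 1 leaned to the 3′ side of transcripts: its log2 coverage index (read density of later over earlier exons, median over 5399 genes, relative to the median library) was 1.23, against -0.07 to 0.12 in the other 10. A second index measured the density of reads in exon 12 of Ctnnb1 and exon 17 of Met over the median exon of the same transcript. It was 0.13 to 0.37 on the log2 scale in responder replicates 1, 2, 3 and 5 and the untreated library, 1.04 and 1.41 in responder replicates 4 and 6, and 1.31 to 3.53 in non-responders. Afp, the fetal serum protein gene, divided the livers likewise: it stood at 1.38 to 2.28 normalised CPM (reads relative to library size after TMM scaling) in the first 5 libraries, at 121.6 and 99.8 in responder replicates 4 and 6, and at 116.4 to 381 in non-responders. Hepatocyte markers summed to 81502 to 94739 CPM in responders and 107336 to 132317 in non-responders, but that sum was mostly albumin and did not stand for the list. Alb (-0.60, edgeR adjusted p = 0.0524) and Apoa1 (-1.11, called) had lower values in responders, Serpina1a was called higher (1.01), and only 3 of the 9 markers had a negative fold change, with a list median of 0.29. The part of these measures in the results below was not tested. Fits with one of them as a covariate are given, but they do not settle that part. The second index, called the exon index below, ran from 0.13 to 1.41 in responders and from 1.31 to 3.53 in non-responders. With so little overlap, a fit with the exon index cannot tell it and response apart.

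Levels were first compared between the 10 genes per kilobase of the length listed for each. For Lgr5 (10264 bases) and Lef1 (8654 bases) that length far exceeds the exons of the transcript with the most reads. The order of genes with close values therefore depends on the length used. Notum, which encodes a secreted enzyme that inactivates Wnt ligands, was the most abundant at 23.3 ± 7.53 CPM per kilobase (SD, n = 11). Rnf43 followed at 9.60 ± 5.22 and lay below Notum in 11 of 11 libraries. Tbx3 (5.67 ± 2.43) and Tcf7 (5.15 ± 3.67) did not differ beyond their spread, with Tbx3 above Tcf7 in 7 of 11 libraries. Axin2 (2.89 ± 1.77), Znrf3 (2.13 ± 0.442), Nkd1 (1.96 ± 1.76), Lgr5 (1.39 ± 0.844) and Sp5 (0.944 ± 0.642) lay close together, and each neighbour in that order was the higher in only 6 to 8 of 11 libraries. Lef1 was lowest at 0.125 ± 0.0610 CPM per kilobase, below Sp5 in 11 of 11, and rested on 19 to 83 reads per library.

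Responders and non-responders were then compared to ask whether the β-catenin programme differed with response. All 10 genes had lower fitted levels in responders, and Tcf7 and Lgr5 passed the test (edgeR's quasi-likelihood test, Benjamini-Hochberg adjusted p under 0.05 over all genes). Of all tested genes, 9.93% were called, 5.82% lower and 4.11% higher, and 51.9% had a negative fold change. No member was called higher. At an unadjusted p under 0.05, 6 of 10 members and 14.9% of all genes were lower. DESeq2 and limma-voom called 3 lower and 0 higher each, Rnf43 being the third, and limma-voom with quality weights 9 lower and 0 higher. Over all 17610 genes these fits called 1661, 1105 and 2021 lower, in that order. The median log2 fold change (responder over non-responder) of the 10 was -0.88, beside -0.02 over all genes. In a bulk liver, fewer cells that express a gene and less RNA per cell cannot be told apart.

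**Figure D1:**
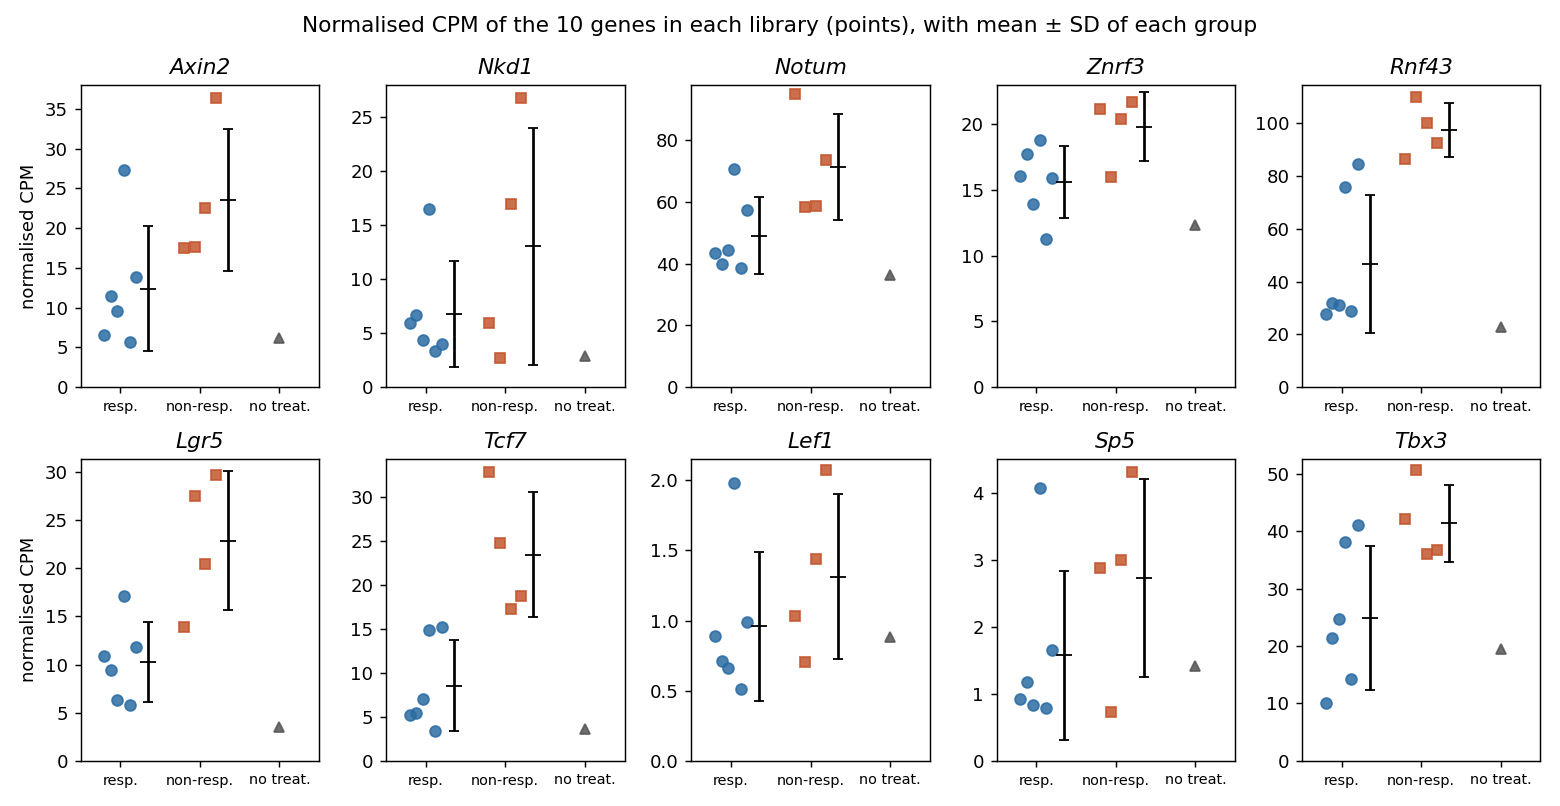
Normalised CPM (vertical axes, each starting at 0) of the 10 genes in responder (circles, n = 6), non-responder (squares, n = 4) and untreated (triangle, n = 1) libraries; black bars give mean ± SD. Tcf7 and Rnf43 are the 2 genes whose responder and non-responder points do not overlap.

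Among the transcription factors, Tcf7 differed most. Tcf7 (ENSMUSG00000000782, mm10 chromosome 11, 52252371 to 52283014, minus strand) encodes TCF-1, a factor that carries β-catenin to DNA and is also made by T cells. In responders its lowest, median and highest values were 3.43, 6.25 and 15.3 CPM. Non-responders 1 to 4 had 32.9, 24.8, 17.3 and 18.8 CPM. Every responder lay below every non-responder, although responder replicates 4 and 6, at 14.9 and 15.3 CPM, came close. Of all tested genes, 5.66% were separated in this direction and 5.6% in the other. The fitted level of Tcf7 was 2.75-fold higher in non-responders, and its fitted log2 fold change, responder over non-responder, was -1.46 with an SE of 0.40 (edgeR adjusted p = 0.0437). With the exon index as a covariate that change was -0.36 ± 0.37 (edgeR adjusted p = 0.651). Without non-responder replicate 1, the library with 3′ weighted reads, it was -1.25 ± 0.45 (adjusted p = 0.105).

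T cell content was read beside Tcf7 and Lef1. Of 15 T cell markers, edgeR's test called 0 and found 0 with an unadjusted p below 0.05. DESeq2 called 0 and limma-voom 0, weighted or not, and none was at 0 in every library. Of the 15 markers, 12 had a negative fold change, as did 51.9% of all genes. The list's median log2 fold change was -0.28, beside -0.02 over all genes. The markers' summed level was 14.9 to 22.03 CPM in responders, 12.4 to 26.6 in non-responders and 14.7 in the untreated library. The library with the most Tcf7, non-responder replicate 1, had the smallest T cell sum, 12.4 CPM. In that library 85.1% of Tcf7 exon reads lay in the last exon, so its rank for Tcf7 is uncertain. The part of T cells in the Tcf7 values was not tested. Cd3e, a pan T cell gene, stood at 0.511 ± 0.180 CPM in responders (SD, n = 6) and 0.599 ± 0.358 in non-responders (SD, n = 4).

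Lef1, Sp5 and Tbx3 did not pass. Lef1 (ENSMUSG00000027985, chromosome 3, 131110471 to 131224356, plus strand), the other TCF/LEF factor of the set, ran from 0.513 to 1.98 CPM in responders and from 0.707 to 2.07 in non-responders. Its log2 fold change was -0.49 (95% interval -1.36 to 0.38, edgeR adjusted p = 0.458). Sp5 (ENSMUSG00000075304, chromosome 2, 70474923 to 70477729, plus strand) encodes a direct target that acts as a repressor. In responders its lowest, median and highest values were 0.783, 1.05 and 4.07 CPM. The non-responders, in order of replicate, had 2.88, 0.734, 3.003 and 4.32 CPM. The groups overlapped at both ends: responder replicate 4 was nearly as high as any library and non-responder replicate 2 was the lowest of all 11. The log2 fold change of Sp5 was -0.83 (95% interval -1.996 to 0.34, edgeR adjusted p = 0.346).

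Tbx3 (ENSMUSG00000018604, chromosome 5, 119670669 to 119684724, plus strand) encodes a T-box factor linked to β-catenin activated liver tumours. Its responder values had a minimum of 10.04, a median of 23.1 and a maximum of 41.1 CPM. Non-responders 1 to 4 had 42.05, 50.6, 36.03 and 36.7 CPM. Responder replicates 4 (38.2 CPM) and 6 (41.1 CPM) fell inside the non-responder range and the other 4 fell below it. The log2 fold change was -0.73 (95% interval -1.47 to 0.02, edgeR adjusted p = 0.192).

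Lgr5, the R-spondin receptor gene (ENSMUSG00000020140, chromosome 10, 115450311 to 115587780, minus strand), is best known as a mark of intestinal stem cells and is also made by pericentral hepatocytes. Responders had a lowest value of 5.81, a median of 10.2 and a highest value of 17.2 CPM. The non-responders, replicates 1 to 4, had 13.9, 27.5, 20.5 and 29.7 CPM. Only responder replicate 4 (17.2 CPM) rose above the lowest non-responder. The fitted level of Lgr5 was 2.25-fold higher in non-responders, and Lgr5 passed with a fitted log2 change of -1.17 ± 0.30 (edgeR adjusted p = 0.0346, ± SE). With the exon index as a covariate the change was -1.10 ± 0.47 (edgeR adjusted p = 0.346), so its size moved little while its error grew.

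Of the membrane-bound ligases, Rnf43 and Znrf3 both encode enzymes that clear Frizzled receptors from the cell surface. Rnf43 (ENSMUSG00000034177, chromosome 11, 87662722 to 87735539, plus strand) stood at 27.7 (lowest), 31.5 (median) and 84.7 CPM (highest) in responders. Non-responders 1 to 4 had 86.6, 110.04, 100.3 and 92.5 CPM. No responder reached a non-responder, yet the responders fell apart into 4 libraries at 27.7 to 31.8 CPM and replicates 4 and 6 at 76.02 and 84.7. Its fitted log2 change of -1.06 ± 0.34 (± SE) missed the threshold (edgeR adjusted p = 0.0679). With the exon index as a covariate it was -0.48 ± 0.43 (adjusted p = 0.596), and -0.20 ± 0.41 (adjusted p = 0.882) when the covariate was the number that each title carries. Those title numbers ran from 1 to 29 in responders and from 26 to 37 in non-responders. They largely follow the groups, so such a fit cannot tell title number and response apart.

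Znrf3 (ENSMUSG00000041961, chromosome 11, 5276324 to 5444847, minus strand) varied least. It stood at 15.6 ± 2.71 CPM in responders (SD, n = 6) and 19.8 ± 2.61 in non-responders (SD, n = 4), and its highest library exceeded its lowest by 1.93-fold, against 4.83-fold for Rnf43 and 10.04-fold for Nkd1. The log2 fold change of Znrf3 was -0.35 (95% interval -0.67 to -0.02, edgeR adjusted p = 0.158).

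Axin2, Nkd1 and Notum are feedback inhibitors inside or outside the cell. Axin2 (ENSMUSG00000000142, chromosome 11, 108920349 to 108950783, plus strand) encodes the inducible scaffold of the degradation complex and is a standard reporter of the pathway. Its responder values had a minimum of 5.65, a median of 10.5 and a maximum of 27.3 CPM. Non-responders 1 to 4 had 17.5, 17.7, 22.6 and 36.4 CPM. Responder replicate 4 (27.3 CPM) was the second highest library of the series and the only responder above any non-responder. Across the groups Axin2 had a log2 fold change of -0.93 (95% interval -1.82 to -0.05, edgeR adjusted p = 0.161). Without responder replicate 4 it was -1.32 (adjusted p = 0.0244), and without non-responder replicate 4 it was -0.64 (adjusted p = 0.357). Of 10 fits that left out 1 treated library each, Axin2 passed in 1.

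Nkd1 (ENSMUSG00000031661, chromosome 8, 88521344 to 88594887, plus strand) encodes an inhibitor that binds Dishevelled, the adaptor below Frizzled. In responders it stood at 3.35 (lowest), 5.14 (median) and 16.5 CPM (highest). Non-responders 1 to 4 had 5.91, 2.67, 16.9 and 26.8 CPM. The spread within groups exceeded the difference between them: non-responder replicate 2 was the lowest of all 11 libraries and non-responder replicate 4 the highest. Its log2 fold change was -0.96 (95% interval -2.32 to 0.39, edgeR adjusted p = 0.344). Without non-responder replicate 4 it was -0.34 (adjusted p = 0.762).

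Notum (ENSMUSG00000042988, chromosome 11, 120653788 to 120661175, minus strand) stood at 49.1 ± 12.5 CPM in responders (SD, n = 6) and 71.5 ± 17.3 in non-responders (SD, n = 4). Its log2 fold change was -0.54 (95% interval -0.97 to -0.11, edgeR adjusted p = 0.0993). The value is uncertain, since 29.4% of its exon bases also belong to the antisense gene Notumos and the strand setting of the counting is not given in the sources used here. In responders it ran from 38.8 to 70.6 CPM and in non-responders from 58.3 to 95.1, with only responder replicate 4 above the lowest non-responder. The log2 fold change of Notum was -0.02 (adjusted p = 0.977) in the fit with the exon index and -0.35 (adjusted p = 0.724) in that with the title number.

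**Figure D2:**
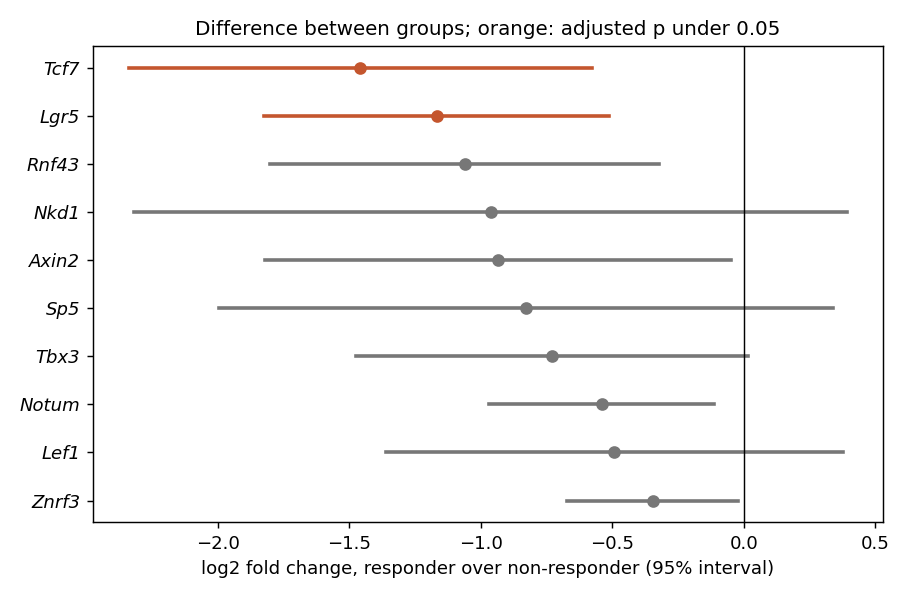
Log2 fold change of each gene (horizontal axis, responder over non-responder; points) with its 95% interval (lines) from edgeR's quasi-likelihood fit; orange marks an adjusted p under 0.05. All 10 points lie below 0, Tcf7 (-1.46) and Lgr5 (-1.17) are past the threshold, and the intervals of 6 genes leave out 0.

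The calls depended on single libraries. Over 10 fits that left out 1 treated library each, Lgr5 passed in 4 (edgeR adjusted p 0.0169 to 0.108) and Tcf7 in 3 (0.0232 to 0.111), while the log2 fold changes stayed between -1.37 and -1.02 for Lgr5 and between -1.70 and -1.25 for Tcf7. Both missed the threshold without responder replicate 1, 2, 3 or 5 or non-responder replicate 2 or 4, and Tcf7 also without non-responder replicate 1. The opposite happened without responder replicate 4: 5 members were called lower, namely Tcf7, Lgr5, Rnf43, Axin2 and Notum. In that fit 1085 of all 17483 genes tested were called lower. Without responder replicate 6, Rnf43 joined Tcf7 and Lgr5 (edgeR adjusted p = 0.0231). No member changed sign in any of these 10 fits.

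The untreated library sat low for most members. Its 22.8 CPM of Rnf43, 36.5 CPM of Notum and 3.48 CPM of Lgr5 were below all 10 treated libraries. Its Axin2 (6.22 CPM), Tcf7 (3.60 CPM), Znrf3 (12.3 CPM) and Tbx3 (19.5 CPM) were within the range of responders and below every non-responder. Lef1 (0.880 CPM) and Sp5 (1.41 CPM) lay inside both ranges, and Nkd1 (2.89 CPM) lay below every responder and inside the range of non-responders. With 1 library there is no spread, so these places carry no test.

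The members did not all peak in the same livers. Nkd1, Sp5 and Lef1 were at or near their highest in non-responder replicates 4 and 3 and responder replicate 4, and were low in non-responder replicate 2. Rnf43 and Tbx3 were at their highest in that same non-responder replicate 2, at 110.04 and 50.6 CPM. Responder replicate 6 likewise had 84.7 CPM of Rnf43 beside only 3.97 CPM of Nkd1.

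**Figure D3:**
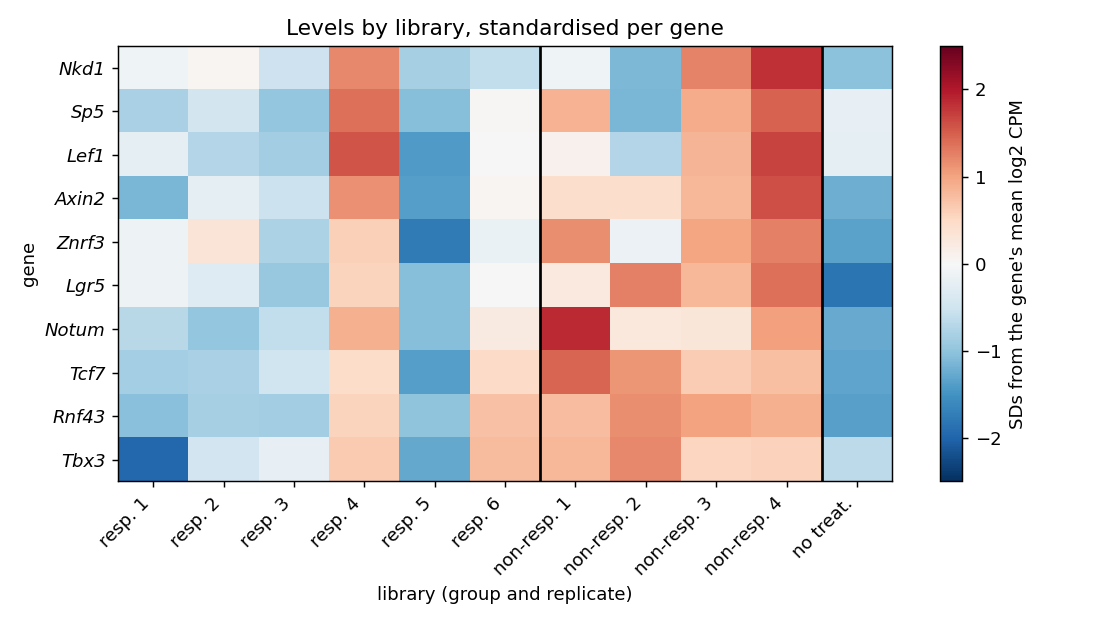
Level of each gene (rows) in each library (columns), in SDs of log2 CPM from the gene's mean over the 11 libraries; black lines divide responders, non-responders and the untreated library. In non-responder replicate 2 the rows of Nkd1, Sp5 and Lef1 are blue (below their mean) where those of Rnf43, Tbx3, Tcf7 and Lgr5 are red.

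These patterns were measured as correlations of log2 CPM over the 11 libraries, 45 pairs in all, with two-sided permutation tests and Benjamini-Hochberg adjustment over the pairs. Pearson's r was positive in all 45 and past the threshold in 31, and pooled values include the difference between the groups. Rnf43 and Tcf7 were the closest pair (r = 0.95, permutation p = 0.00017, adjusted p = 0.00191; Spearman's rho = 0.90, permutation p = 0.00038, adjusted p = 0.0048). Without the 2 libraries farthest from the median of Rnf43 their r was 0.93, and within the 6 responders it was 0.94. Lef1 and Sp5 followed (r = 0.93, permutation p = 4.0e-05, adjusted p = 0.00135; rho = 0.95, permutation p = 5.0e-05, adjusted p = 0.00225). Without the 2 libraries farthest from the median of Lef1 their r was 0.86, and within responders 0.95.

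Nkd1 and Tbx3 were the least alike (r = 0.26, permutation p = 0.448, adjusted p = 0.448; rho = -0.04, permutation p = 0.924, adjusted p = 0.924). Without the 2 libraries farthest from the median of Nkd1 their r was 0.08, and within the 6 responders 0.33. Nkd1 was little closer to Tcf7 (r = 0.38, permutation p = 0.240, adjusted p = 0.246; rho = 0.24, permutation p = 0.485, adjusted p = 0.496) or to Rnf43 (r = 0.44, permutation p = 0.165, adjusted p = 0.173; rho = 0.26, permutation p = 0.434, adjusted p = 0.455). Without the 2 farthest libraries these r were 0.20 and 0.17, and within responders 0.49 and 0.41. Within responders the 9 pairs that cross from Nkd1, Sp5 and Lef1 to Rnf43, Tcf7 and Tbx3 had r of 0.33 to 0.83, against 0.26 to 0.58 over all libraries. The difference between such correlations was not itself tested.

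**Figure D4:**
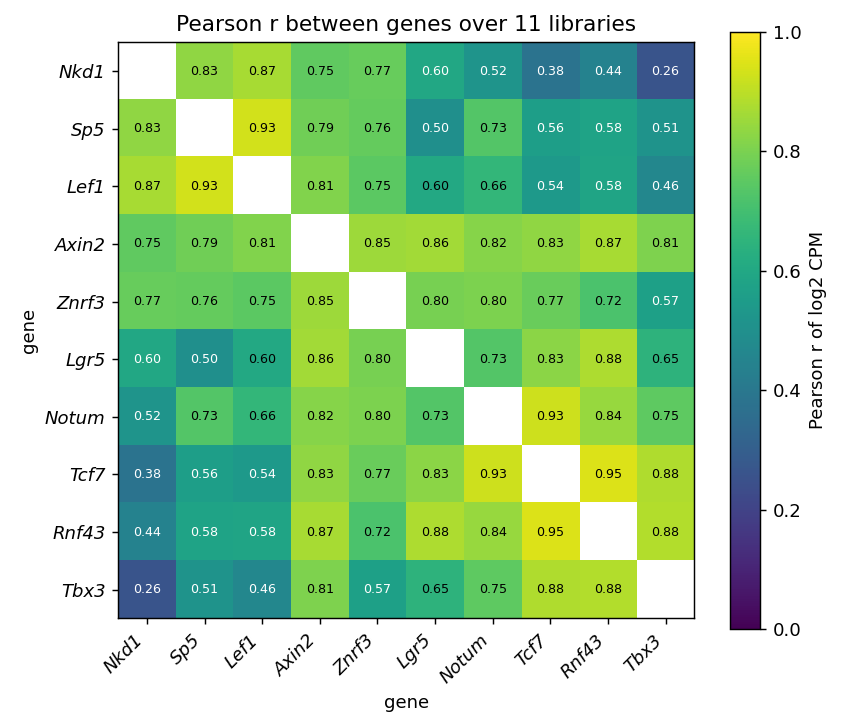
Pearson's r of log2 CPM over 11 libraries for each pair of genes (rows and columns, colour and printed value). Nkd1, Sp5 and Lef1 have values of 0.83 to 0.93 among themselves, Rnf43, Tcf7 and Tbx3 values of 0.88 to 0.95, and pairs across these trios, which were picked after seeing the values, run from 0.26 to 0.58.

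Axin2 related to every other member, with r from 0.75 (Nkd1) to 0.87 (Rnf43). In this family of 9 relations, each r passed (permutation adjusted p 0.00306 to 0.0082). Lgr5 had the highest rank correlation with Axin2 (rho = 0.93, permutation p = 0.0002, adjusted p = 0.0018; r = 0.86, permutation p = 0.00088, adjusted p = 0.00306) and Nkd1 the lowest (rho = 0.61, permutation p = 0.052, adjusted p = 0.052; r = 0.75, permutation p = 0.0082, adjusted p = 0.0082). Without the 2 libraries farthest from the median of Axin2, non-responder replicate 4 and responder replicate 5, the relation of Axin2 with Nkd1, Lef1 and Sp5 no longer passed (r = 0.60, 0.65 and 0.66, permutation adjusted p = 0.0878, 0.0652 and 0.0652), while r stayed positive and 9 libraries remained. The other 6 had r of 0.76 to 0.88. Within the 6 responders alone, r was 0.75 to 0.94 and only that of Sp5 passed (exact permutation adjusted p = 0.0375).

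Outside the set, the genes most like Axin2 by Pearson's r of log2 CPM over 11 libraries, among 11183 genes of moderate or high level, were Notumos (r = 0.98), the carbonic anhydrase gene Car2 (0.94), Tnfrsf19 (0.94), which encodes a receptor known as a Wnt target, and the mitotic genes Cdc20 (0.94) and Pttg1 (0.94). Those most like Lgr5 were the vasopressin receptor gene Avpr1a (0.97), Chmp6 (0.97), Rell1 (0.96), Fam118a (0.96) and Sgms1 (0.96). They were selected by this measure, so it carries no test.

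Positions inside the genes gave a further readout. The share of a member's exon reads in each exon was compared between groups for the 79 exons that averaged at least 10 counts. With an exact permutation test, 0 of 79 passed after adjustment, 3 had an unadjusted p under 0.05 and the smallest adjusted p was 0.752. The libraries allow 210 splits, so the smallest p that this exact permutation test could give was 0.0048. A single exon at that p would not pass adjustment over 79 exons, so the lack of calls decides little. The lowest p among the 79 was that of the last exon of Nkd1, with 47.9% ± 3.55 of its exon reads in responders (SD, n = 6) and 57.8% ± 6.95 in non-responders (SD, n = 4; exact permutation p = 0.0143). In non-responder replicate 1, the last exon took 85.1% of Tcf7 exon reads and 85.9% of those of Lgr5, against 56.4% to 67.3% and 48.5% to 57.7% in the other treated libraries. With the last exon of every gene left out, the log2 fold changes were -1.28 ± 0.33 for Tcf7 (edgeR adjusted p = 0.0432) and -1.16 ± 0.40 for Lgr5 (edgeR adjusted p = 0.0991).

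The rest of the pathway was read from a list of 40 genes for its receptors, degradation complex, nuclear partners and inhibitors, of which 39 were tested. Of these, 4 (10.3%) were lower and 3 higher in responders and 32 did not pass, beside 5.82% lower and 4.11% higher over all genes. The list's median log2 fold change was 0.06, beside -0.02 over all genes. Lower were Ctnnb1 (β-catenin itself, -0.60), the co-receptor gene Lrp5 (-0.64), the co-repressor gene Tle1 (-0.87) and Tax1bp3 (-0.95), whose product binds β-catenin. Higher were Dact2 (1.31) and Nkd2 (1.14), relatives of Dishevelled-binding inhibitors, and the co-repressor gene Tle3 (0.57). Nkd2 was near the floor, with means of 0.465 CPM in responders and 0.210 CPM in non-responders. Its paralogue Nkd1, with a negative fitted value, did not pass. Ctnnb1 had 332 ± 38.6 CPM in responders (SD, n = 6) and 504 ± 132 in non-responders (SD, n = 4), with an edgeR adjusted p of 0.0476, and its reads include those of the unevenly covered exons described above. Met had a log2 fold change of 0.09 and did not pass (edgeR adjusted p = 0.823).

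Other reported targets of β-catenin, in liver or elsewhere, were read from a list of 33 genes, 24 of them tested. In responders 5 (20.8%) were lower, 1 was higher and 18 did not pass, beside 5.82% lower and 4.11% higher over all genes. The list's median log2 fold change was -0.37, beside -0.02 over all genes. Lower were the amino acid transporter gene Slc1a4 (-2.37), the dicarboxylate transporter gene Slc13a3 (-2.14), the activin antagonist gene Fst (-1.84), the ammonium transporter gene Rhbg (-1.50) and Avpr1a (-1.13). Cyp27a1, a sterol hydroxylase gene, was higher (0.62). Glul, the glutamine synthetase gene of the innermost pericentral hepatocytes, did not pass (-0.84, edgeR adjusted p = 0.251) and was spread over livers much as Nkd1 was: it had 1013 CPM in responder replicate 4, 1115 and 1669 CPM in non-responder replicates 3 and 4, but 311 CPM in non-responder replicate 2, below every responder.

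Markers of other liver cells were read the same way. Of 5 B cell genes tested, edgeR called 0 (0 with p below 0.05 before adjustment), DESeq2 0 and limma-voom 0, and their sums were 3.75 to 6.76 CPM in responders and 4.13 to 9.93 in non-responders. Cholangiocyte genes summed to 28.04 to 40.8 and 37.1 to 79.9 CPM, with 0 of 6 past edgeR's threshold (2 with p below 0.05 before adjustment), 1 called by DESeq2, 0 by limma-voom and 1 by its weighted form, and the highest sum in non-responder replicate 2. Stellate cell genes summed to 288 to 460 and 349 to 498 CPM, with 0 of 8 past it (5 with p below 0.05 before adjustment), 2 called by DESeq2, 0 by limma-voom and 2 by its weighted form. Fold changes were negative in 5 of 5 B cell, 5 of 6 cholangiocyte and 5 of 8 stellate cell genes. The medians of these lists were -0.36, -0.63 and -0.19, in that order, beside -0.02 over all genes. Endothelial genes summed to 284 to 484 and 182 to 404 CPM, and edgeR called 1 of 8, Lyve1, lower in responders (-1.44) and 0 higher (2 of 8 with p below 0.05 before adjustment). DESeq2 and limma-voom also called 1 lower, and the weighted form of limma-voom 2. Only 2 of the 8 endothelial genes had a negative fold change, the list's median was 0.31, and Clec4g went the other way without passing (0.61, edgeR adjusted p = 0.128). None of these markers tested was at 0 in every library.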

How the data were processed

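Per the labels' protocols, liver RNA was isolated with TRIzol and sequenced on Illumina libraries. The submitters' processing notes name FastQC and build mm10. The aligner, counter, annotation and strandedness are not given in the sources. Per the file headers, the deposited values are raw counts of genes and of transcripts' exons. The RPKM values deposited by the authors were not used.

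Responders (6) and non-responders (4) were tested with R 4.3.3 and edgeR 4.0.16. The steps were TMM scaling after filterByExpr, a robust quasi-likelihood F test and Benjamini-Hochberg adjustment at 0.05. SE is the log2 fold change over the root of F. Correlations used log2 CPM (prior count 2) and 100000 permutations (numpy 2.4.6). Alternatives used DESeq2 1.42.0, limma 3.58.1, other scalings and filters, covariates and libraries left out. Strand, exon order and overlaps came from GENCODE M21, which held 42462 of the 43346 identifiers. On simulated counts for this comparison (17346 genes tested), the edgeR step called 2 of 74 genes changed 1.5-fold, 30 of 60 changed 2-fold, 56 of 64 changed 4-fold and 11 of 17148 unchanged genes.

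The members and lists were chosen with earlier results of these data known. The 45 pairs and the counts without the last exon were added after seeing the data. Named genes were all members, Ctnnb1, Met, Glul, Afp, Cd3e and Alb, up to 8 genes past the threshold per list by p, and the 5 most like Axin2 and Lgr5 with a mean log2 CPM of at least 1, with Gm-numbered and Rik symbols left out. Lyve1, Clec4g, Apoa1 and Serpina1a were named after their values were seen.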

Additional observations from a re-analysis of the deposited data

Results flagged for a closer look

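Outlying libraries were sought within each group for the CPM of the 10 genes and for 3 library measures, 26 checks in all, of which chance flags about 1 in 20. The highest or lowest library stood apart by Dixon's gap test in 5. Responder replicate 4 stood above the other responders for Nkd1 (16.5 CPM, others 3.35 to 6.68), for Sp5 (4.07 CPM, others 0.783 to 1.66) and for Lef1 (1.98 CPM, others 0.513 to 0.993). The 3′ coverage index was high in responder replicate 6 among responders (0.122, others up to 0) and in non-responder replicate 1 among non-responders (1.23, others -0.01 to 0).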

How the results depend on the processing

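The 10 members kept their negative sign under all 23 alternatives. Of 1748 genes, 2 members, 7 pathway genes and 6 other targets called, counts fell to 1, 0, 0 and 0 with the title number as a covariate and to 1, 0, 0 and 0 with the exon index. Title number and exon index both largely follow the groups, so these fits cannot tell either apart from response. With no low count filter 0 members, 3 pathway genes and 2 other targets were called. DESeq2 called 3057 genes. Limma-voom with quality weights called 3642 genes, 9 members, 12 pathway genes and 11 other targets. With the 3′ index as a covariate 1 member, Lgr5, was called. Without the last exon 960 genes, 1 member (Tcf7) and 3 pathway genes were called. Leaving out 1 library each gave 79 (without non-responder replicate 2) to 1994 genes, 0 to 5 members, 0 to 8 pathway genes, 0 to 8 other targets and 0 to 0 exons. Those exon tests had still fewer splits, so their count was nearly fixed in advance. Of the 9 relations with Axin2 past the threshold, 1 remained past it within 6 responders, where fewer libraries entered. The cause of the other shifts was not tested. No paired analysis was possible because the replicate numbers follow accession order and the title numbers differ between groups. Lef1 and Sp5 rest on few reads, and intervals cover these libraries only.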
